A study of Rattus norvegicus with 12 samples.

Results

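Cytochrome P450 families 1 to 4 of the rat were followed in RNA sequencing of rat intestine, over 3 groups of 4 libraries. The members are every gene of the deposited count table whose symbol starts with Cyp, a family number of 1 to 4, a subfamily letter and a gene number. The rule uses names alone and finds 50 genes among 18749: 2 in family 1, 27 in family 2, 5 in family 3 and 16 in family 4. Enough reads to be tested were found for 32 of them, namely 2, 17, 3 and 10 in families 1, 2, 3 and 4, out of 15704 genes tested. The group postSTC is labelled postoperative, preSTC preoperative, and preCTC as sampled before a sham operation. All 12 samples are labelled as intestine of WT rats in batch 1, measured as polyA RNA. The series title speaks of adaptation of the small intestine to removal of the colon. The labels do not explain STC and CTC, and give no strain, age, sex, time after the operation or position along the gut. No sample taken after a sham operation was analysed here, so that the operation and the time since preSTC cannot be told apart. Nothing in the labels says that the libraries of a group came from separate animals, so that p-values speak of the spread among these libraries alone, and that may be technical.

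Cytochromes P450 are heme enzymes of the endoplasmic reticulum that insert an oxygen atom into small lipophilic molecules, using electrons passed on by P450 oxidoreductase. Members of families 1 to 3 oxidise much of what is swallowed, and the gut epithelium carries several of them as a first barrier ahead of the liver; the aryl hydrocarbon receptor, CAR and PXR are the classical sensors that switch on families 1, 2 and 3. Family 4 enzymes, and the 2c and 2j subfamilies, act mainly on fatty acids and eicosanoids such as leukotriene B4 and arachidonic acid.

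Libraries held 30095656 to 39374682 counts, and the 50 members together took 0.0318% (postSTC7) to 0.247% (postSTC1) of them. Levels below are CPM, counts relative to the library total, scaled by edgeR's TMM factors; library values are listed in the order 1, 2, 5 and 7 for postSTC, and 1, 5, 7 and 9 for preSTC and for preCTC. A pair of libraries stood apart. In postSTC7, seminal vesicle and prostate markers (10 genes of a list of 11) took 42.1% of all counts, against 0.0025% to 0.0341% in the other libraries. In preCTC5, the hindgut transcription factor Hoxb13 was at 1.44 CPM, against 315 to 445 CPM in the other preCTC libraries, while Car1 reached 3110 CPM there, against 226 to 493 CPM. Markers of the ileum, summed over 4 genes, spanned 1600 to 4320 CPM in postSTC, 4190 to 5100 CPM in preSTC and 10.9 to 23.6 CPM in preCTC, and the bile acid carrier Slc10a2 was at 0.105 to 0.458 CPM in preCTC. Summed colon markers (6 genes) spanned 146 to 417, 45 to 71.3 and 845 to 3400 CPM in postSTC, preSTC and preCTC. Epithelial markers (8 genes) summed to 6640 to 14000 CPM in postSTC, 13200 to 16400 CPM in preSTC and 9700 to 13700 CPM in preCTC. Smooth muscle markers (8 genes) summed to 5590 to 8310, 3130 to 4830 and 10100 to 17000 CPM in the same order of groups, and fibroblast markers (6 genes) to 2100 to 3760, 1890 to 2490 and 5080 to 7920 CPM. Immune markers (7 genes) summed to 173 to 531 CPM in postSTC, 328 to 813 CPM in preSTC and 141 to 333 CPM in preCTC, and 3 of the 7 were higher than in preCTC both in postSTC and in preSTC. Hepatocyte markers (8 genes) summed to 120 to 608 CPM in postSTC, 472 to 720 CPM in preSTC and 0.848 to 1.81 CPM in preCTC. Most of that sum was Cps1 (112 to 505, 468 to 712 and 0.288 to 0.668 CPM), which enterocytes also express, and Apoc3 reached 101 CPM in postSTC1, whereas Alb was at most 3.54 CPM and Ahsg, Fgb and Tat at most 0.116 CPM in any library. Cps1 and Apoc3, 2 of 4 hepatocyte markers tested, were higher than in preCTC in both other groups. Of all genes, 9.27% were called higher than in preCTC in postSTC and 19.1% in preSTC. The part of these differences in gut position and cell content in the results below was not tested, and in such bulk samples fewer cells of a type and less RNA per cell cannot be told apart.

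The most abundant members were the drug- and steroid-oxidising enzymes of family 3. On a per-length scale (the authors' FPKM, rescaled by the TMM factors), Cyp3a9 had the highest median over the 12 libraries at 88.7, followed by Cyp3a62 at 72.5. Both are P450s described in rat intestine. The highest member of family 4, the leukotriene B4 hydroxylase Cyp4f5, had a median of 29.7, the highest of family 2, the debrisoquine hydroxylase Cyp2d1, 18.6, and the highest of family 1, the hydrocarbon hydroxylase Cyp1a1, 3.04. A steep order followed: the 32nd tested member, Cyp2c23, had a median of 0.108, and 12 of the 18 members without a test had a median of 0. Within family 3, Cyp3a9 took 36.2% to 82.7% of the reads of a library. Within family 4, Cyp4f5 took 18.6% to 64.5%, and in family 1 Cyp1a1 took 45.3% to 91.3%.

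**Figure D1:**
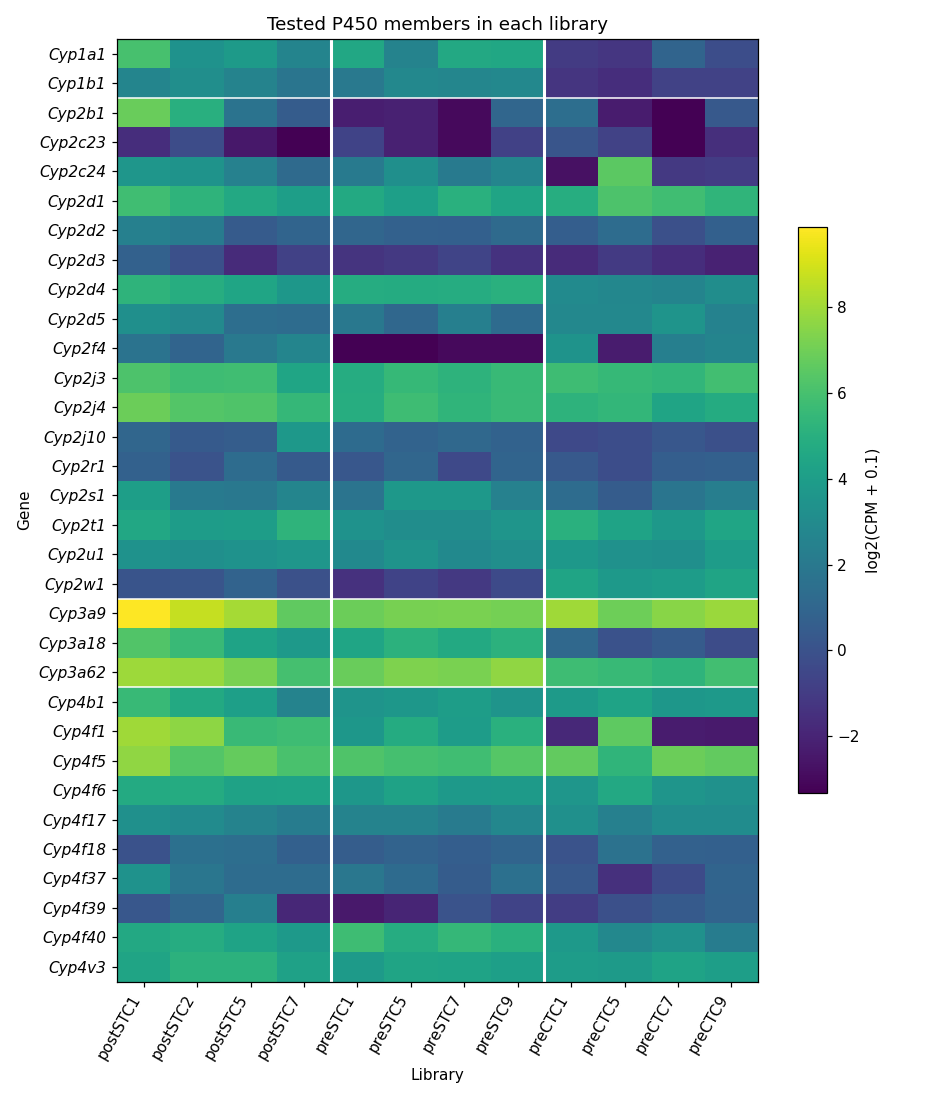
Level of each of the 32 tested P450 members (down the page, grouped by family) in each of the 12 libraries (across, postSTC, preSTC and preCTC from left to right), as log2(CPM + 0.1) in colour. Family 1 and Cyp3a18 are darker in all preCTC libraries than elsewhere, Cyp2f4 is darkest in the preSTC libraries, and preCTC5 is light among dark preCTC libraries for Cyp4f1 and Cyp2c24.

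The first question is what differed after the operation. In postSTC, 5 members were higher than in preSTC by edgeR's quasi-likelihood test (adjusted p under 0.05 over all 15704 genes): Cyp2f4, Cyp2b1, Cyp2w1, Cyp2t1 and Cyp3a9. That is 15.6% of 32 members tested, against 11.1% of all genes called higher. Of the 5, Cyp2f4 and Cyp2b1 passed the filter on low counts with the aid of the postSTC libraries, in which they were higher. None was called lower, against 6.9% of all genes; without adjustment (p under 0.05) edgeR gave 9 members higher and 1 lower, DESeq2 called 8 higher and 1 lower, and limma on the FPKM called 0 or 2 higher, depending on the pseudocount, and 0 lower. DESeq2 gave a p-value for 47 members and limma for 28, against 32 with edgeR. Limma ran on the deposited FPKM without TMM factors. Levels in postSTC7, with a factor of 0.567, thus stand lower there than under TMM scaling, and the part of this in the limma counts was not tested. No shares of all genes are given for DESeq2, limma or the unadjusted counts. The median log2 fold change was 0.62 over the members and 0.04 over all genes. In 5 members the postSTC and preSTC libraries did not overlap (15.6%, against 22.1% of all genes): Cyp2f4, Cyp2t1, Cyp2w1, and, not called, Cyp4f1 and Cyp4f6. The count changed when single libraries were left out: 10 members were called without postSTC7, 3 without preSTC1 and 2 without preSTC5 or without preSTC7. The shares of all genes called in those fits are not given here, so the change cannot be read as particular to the members. Replicate numbers were taken to pair postSTC with preSTC. With the number as a block the count was 5 in the fit of 12 libraries, 4 higher, all shared with the unblocked fit, and 1 lower (Cyp4f40). That fit also blocked the preCTC libraries by number. In the fit of the 8 libraries of these groups the count was 1 (Cyp2f4). There postSTC2 and preSTC9 had no partner, so that 3 pairs bore on the comparison. Lost precision may enter the lower count, which was not tested.

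Set against preCTC, postSTC had 11 members higher (34.4%, against 9.27% of all genes) and 1 lower (3.12%, against 7.37%). The groups did not overlap in 9 members, or 28.1%, against 18.1% of all genes, and the median log2 fold change was 0.86 for the members and 0.04 for all genes. Between the preoperative groups, preSTC against preCTC, 6 members were higher (18.8%, against 19.1%) and 5 lower (15.6%, against 19.6%), and 11 did not overlap (34.4%, against 45%). There the median was -0.13 for the members and -0.02 for all genes, and the members' shares lay close to or below those of all genes. These 3 comparisons share libraries: each group enters 2 of them.

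**Figure D2:**
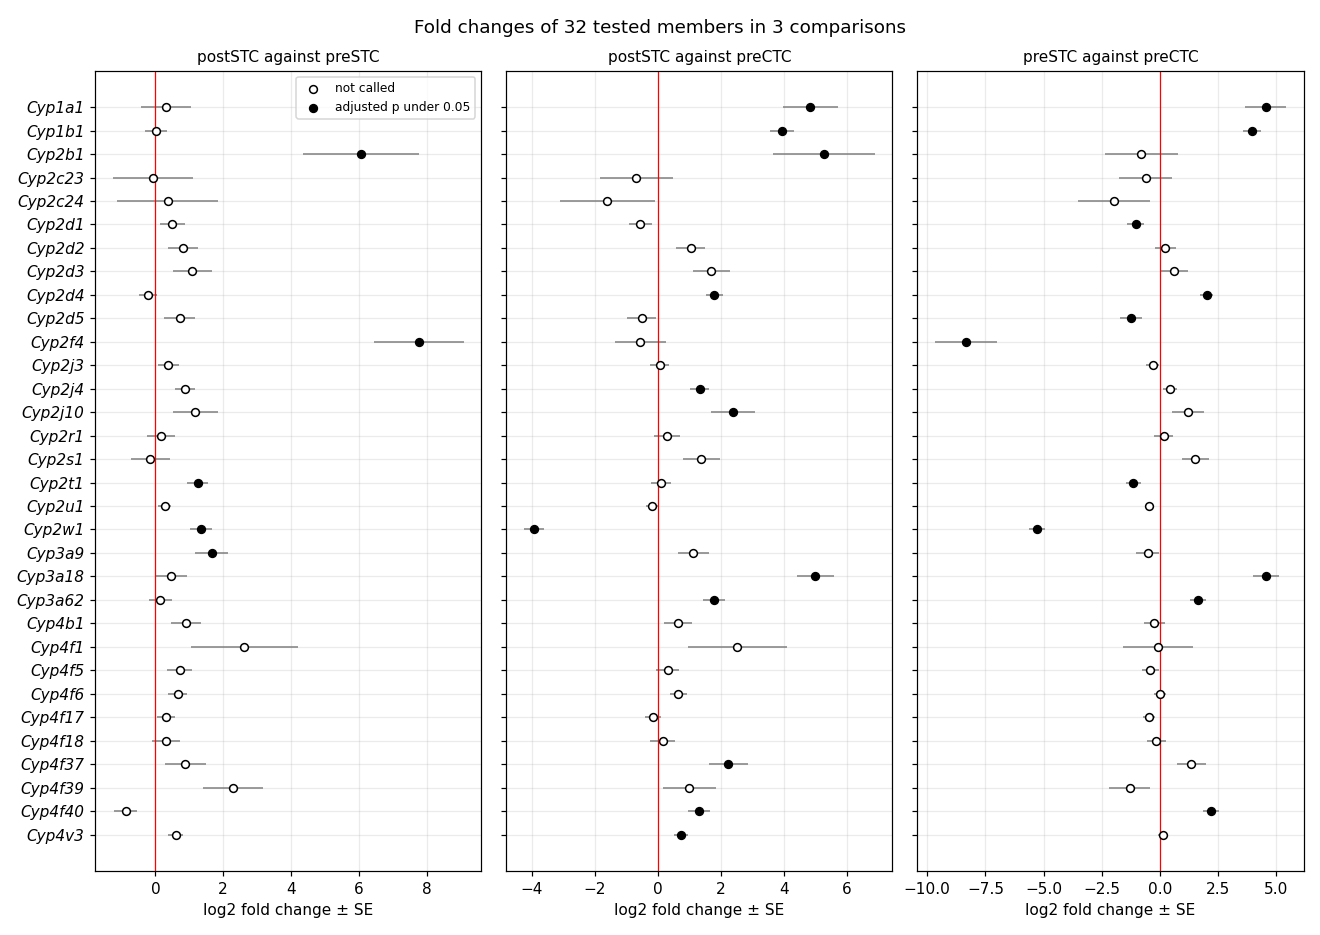
Log2 fold change with its SE (horizontal axis) of the 32 tested members (down the page) in postSTC against preSTC, postSTC against preCTC and preSTC against preCTC, with filled points for members called at an adjusted p under 0.05. The left panel holds 5 filled points, all to the right of 0, the middle one 11 to the right and 1 (Cyp2w1) to the left, and the right one 6 and 5.

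**Figure D3:**
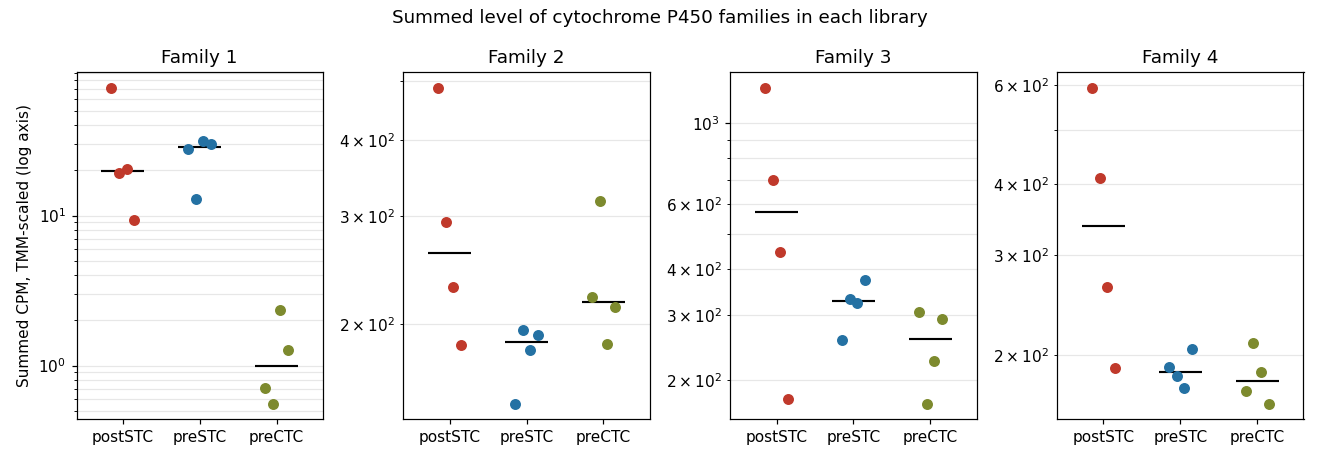
Summed CPM of each P450 family (log axis) in each library, with postSTC, preSTC and preCTC from left to right and a line at each group's median. Family 1 has medians of 19.8, 28.8 and 0.991 CPM, and family 3 of 572, 327 and 259 CPM, in postSTC, preSTC and preCTC, with postSTC7 the lowest postSTC library in every family.

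Family totals showed how far the postSTC libraries differed among themselves. All members together summed to 2399, 1421, 958 and 561 CPM in postSTC, 622, 723, 710 and 800 CPM in preSTC and 700, 701, 600 and 671 CPM in preCTC. The highest postSTC library was thus over 4 times the lowest, whereas the libraries of the other groups lay much closer together. Family 3 summed to 1247, 698, 445 and 177 CPM in postSTC, against 256, 331, 323 and 374 CPM in preSTC and 305, 172, 225 and 292 CPM in preCTC. Family 4 summed to 593, 411, 263 and 190 CPM in postSTC, against 190, 183, 174 and 205 CPM in preSTC and 173, 210, 187 and 164 CPM in preCTC. For family 2 the medians were 261 CPM in postSTC, 187 CPM in preSTC and 217 CPM in preCTC. In all 4 families postSTC1 was the highest and postSTC7 the lowest of the postSTC libraries.

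Family 1, the classical targets of the aryl hydrocarbon receptor, was low in preCTC, and 0 of its 2 members were called in postSTC against preSTC. Cyp1a1, which oxidises polycyclic hydrocarbons, had 65.1, 10.3, 14.5 and 6 CPM in postSTC, 23.8, 5.8, 25 and 23 CPM in preSTC and 0.392, 0.329, 1.82 and 0.771 CPM in preCTC. Every postSTC and preSTC library lay above every preCTC library. Its log2 fold change was 4.85 ± 0.88 (SE) in postSTC against preCTC (adjusted p = 0.00317), 4.54 ± 0.87 in preSTC against preCTC (adjusted p = 0.00171) and 0.31 ± 0.73 in postSTC against preSTC (adjusted p = 0.801). Cyp1b1, which also hydroxylates estradiol, had 6.24, 8.92, 5.77 and 3.4 CPM in postSTC, 3.96, 7.01, 6.43 and 6.92 CPM in preSTC and 0.314, 0.228, 0.514 and 0.506 CPM in preCTC. Here too no preCTC library reached any library of the other groups. Its log2 fold change was 3.95 ± 0.38 in postSTC against preCTC (adjusted p = 3.92e-05), 3.95 ± 0.38 in preSTC against preCTC (adjusted p = 1.57e-05) and 0.00 ± 0.32 in postSTC against preSTC (adjusted p = 0.996). All these calls against preCTC held when any 1 library was left out. The RefSeq promoter of Cyp1b1 is shown because this member, with Cyp1a1, marks the contrast with preCTC: it holds the GCGTG core that the aryl hydrocarbon receptor binds, on either strand (in capitals, the reverse complement being CACGC), in the 250 bases before the gene start at chr6:21094315-21094564 (plus strand, GRCr8).

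Cyp1b1: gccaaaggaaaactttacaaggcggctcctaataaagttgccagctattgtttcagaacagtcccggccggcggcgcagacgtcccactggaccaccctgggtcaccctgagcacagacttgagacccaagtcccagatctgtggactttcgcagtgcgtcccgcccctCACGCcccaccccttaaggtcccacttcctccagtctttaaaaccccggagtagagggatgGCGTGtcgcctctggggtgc

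The core occurred at 81 and at 20 bases before the gene start. Of 45 members with a RefSeq promoter window of 300 bases, 250 before and 50 after the gene start, 13 held GCGTG or its reverse complement, against 29.7% of 33469 windows of all genes. Windows with TATAAA (or TTTATA) numbered 11 of 45 members, against 14.2% of all, and those with AGGTCA (or TGACCT), the half-site of many nuclear receptors, 13 of 45, against 16.2% of all. None of the matches found in the members overlapped a match to another motif, and a match describes letters only.

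Other known targets of that receptor were read as a list. Of 7, 1 was higher in postSTC than in preSTC and 0 lower (median log2 fold change 0.98, against 0.04 for all genes; edgeR gave 3 higher and 1 lower before adjustment (p under 0.05), and DESeq2 called 2 higher and 0 lower). The glutathione transferase Gsta1 had 22.9, 49.4, 59 and 117 CPM in postSTC, against 7.91, 7.66, 15 and 8.88 CPM in preSTC, with no overlap, a log2 fold change of 2.65 ± 0.41 and an adjusted p of 0.00221. It was highest in postSTC7, the library in which Cyp1a1 was lowest within the group. The rest of the list went both ways in postSTC against preSTC and was not called (adjusted p = 0.0603 to 0.763). Log2 fold changes were 2.76 for Aldh3a1, 0.98 for Ugt1a6, 0.98 for Gsta2 and 0.10 for Tiparp. They were -0.63 for Ahrr and -0.59 for Nqo1. Against preCTC, postSTC had 2 of the 7 higher, Gsta1 (1.95 ± 0.40, adjusted p = 0.00657) and Gsta2 (2.60 ± 0.72, adjusted p = 0.0291), and preSTC had 1 lower, Ugt1a6 (-1.81 ± 0.42, adjusted p = 0.00545). Of all genes, 11.1% were called higher and 6.9% lower in postSTC against preSTC. The shares were 9.27% and 7.37% in postSTC against preCTC, and 19.1% and 19.6% in preSTC against preCTC. The receptor itself, Ahr, had 36.3, 38.9, 34.5 and 44.1 CPM in postSTC, 37.9, 44.5, 39.5 and 42.8 CPM in preSTC and 34.4, 40, 37.2 and 39.4 CPM in preCTC.

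Among the drug-metabolising members of family 2, Cyp2f4, Cyp2w1 and Cyp2t1 were higher after the operation and also differed between the preoperative groups. Cyp2f4, the rat counterpart of the mouse lung enzyme that activates naphthalene, had 3.2, 1.77, 3.88 and 6.22 CPM in postSTC, 0, 0, 0.027 and 0.028 CPM in preSTC and 11, 0.101, 5.01 and 6.04 CPM in preCTC. Its reads numbered 456 in postSTC, 2 in preSTC and 872 in preCTC, and preCTC5 alone among the preCTC libraries came near the preSTC level. The level was 253 times as high in postSTC as in preSTC (95% counting interval 69.6 to 2093; adjusted p = 0.00331), and 402 times as high in preCTC as in preSTC (111 to 3323; adjusted p = 0.000534). With 2 reads in preSTC these ratios are loosely known, and Cyp2f4 passed the filter on low counts through the other groups only. Between postSTC and preCTC the log2 fold change was -0.56 ± 0.81 (adjusted p = 0.684). These counting intervals cover the reads only and not the spread between libraries. The hindgut factor Hoxb13 followed a like order of groups, and was also low in preCTC5: 92.7, 42.2, 125 and 62.8 CPM in postSTC, 0.291, 0.311, 0.135 and 0.056 CPM in preSTC and 445, 1.44, 331 and 315 CPM in preCTC. The part of gut position in the Cyp2f4 result was not tested. Its promoter, at chr1:91543518-91543767 (plus strand, GRCr8), is shown as that of the member with the widest range between groups; it holds none of the 3 motifs searched.

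Cyp2f4: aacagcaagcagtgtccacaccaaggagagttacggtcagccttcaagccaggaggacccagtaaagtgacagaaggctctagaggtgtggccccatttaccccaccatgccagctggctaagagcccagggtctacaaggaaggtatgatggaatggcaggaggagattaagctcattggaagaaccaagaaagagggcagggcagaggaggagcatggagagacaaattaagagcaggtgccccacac

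Cyp2w1, best known from human fetal colon and colorectal tumours, had 0.97, 1.03, 1.7 and 0.851 CPM in postSTC, 0.262, 0.518, 0.351 and 0.672 CPM in preSTC and 20.6, 13.6, 15.3 and 20.9 CPM in preCTC. The 3 groups did not overlap at all. Among the 32 tested members it alone was called in all 3 comparisons. The share of all genes called in all 3 is not given here. Its log2 fold change was 1.34 ± 0.32 in postSTC against preSTC (adjusted p = 0.0153), -3.94 ± 0.32 in postSTC against preCTC (adjusted p = 1.09e-05) and -5.28 ± 0.35 in preSTC against preCTC (adjusted p = 1.06e-06). Unlike Cyp2f4, it stayed at the preCTC level in preCTC5. Cyp2t1 had 23.6, 15.7, 16.2 and 38.3 CPM in postSTC, 10.6, 8.7, 8.56 and 11.6 CPM in preSTC and 32.6, 19.9, 13.1 and 21.5 CPM in preCTC. All preSTC libraries lay below all others. Its log2 fold change was 1.24 ± 0.32 in postSTC against preSTC (adjusted p = 0.02), 0.10 ± 0.31 in postSTC against preCTC (adjusted p = 0.858) and -1.14 ± 0.32 in preSTC against preCTC (adjusted p = 0.0139). The first of these calls was lost without preSTC5 (adjusted p = 0.0567) or preSTC7 (adjusted p = 0.0606). In the RefSeq gene order of GRCr8, Cyp2f4 and Cyp2t1 are neighbours on chromosome 1 with 0 protein-coding genes between them, and the reads of one could not be checked against the other, since no gene models were used here.

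Cyp2b1, the phenobarbital-inducible P450 of the rat and a target of the nuclear receptor CAR (Nr1i3), varied most among the postSTC libraries. It had 114, 31.9, 3.11 and 1.34 CPM in postSTC, 0.116, 0.129, 0.027 and 1.96 CPM in preSTC and 2.59, 0.101, 0 and 1.18 CPM in preCTC. The groups overlapped, since preSTC9 lay above postSTC7. Outside postSTC only preSTC9, preCTC1 and preCTC9 held more than 5 reads. Cyp2b1 thus passed the filter on low counts through postSTC, where it was high. The log2 fold change was 6.07 ± 1.71 in postSTC against preSTC (adjusted p = 0.0305), 5.28 ± 1.63 in postSTC against preCTC (adjusted p = 0.0447) and -0.80 ± 1.57 in preSTC against preCTC (adjusted p = 0.717). Without postSTC1 the first 2 values were 4.44 (adjusted p = 0.0688) and 3.65 (adjusted p = 0.134), so that both calls were lost without it. The call against preSTC was also lost without preSTC1, preSTC5 or preSTC7 (adjusted p = 0.0788 to 0.0836), and that against preCTC without postSTC2, without preSTC1, preSTC5 or preSTC7, or without any 1 preCTC library (adjusted p = 0.0543 to 0.0953). Nr1i3 had 8.63, 5.22, 2.95 and 2.15 CPM in postSTC, 2.01, 1.79, 0.972 and 2.46 CPM in preSTC and 2.48, 1.47, 1.62 and 1.83 CPM in preCTC, and was highest in postSTC1 as well. Its log2 fold change was 1.39 ± 0.43 in postSTC against preSTC (adjusted p = 0.0424).

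Cyp2b2, the close paralog of Cyp2b1, had 15 reads in postSTC1, 2 in postSTC2 and 0 in the other postSTC and all preSTC libraries; preCTC1 and preCTC9 held 1 each. Reads of such paralogs could be split or lost by the counting, the treatment of which is not given in the sources used here, so that Cyp2b1 and Cyp2b2 are uncertain as single genes. Summed over its 6 members, the 2b subfamily is nearly all Cyp2b1, except in postSTC7, where Cyp2b12, Cyp2b15, Cyp2b21 and Cyp2b3 lifted the sum to 3.18 CPM from the 1.34 CPM of Cyp2b1, above every preSTC library. The sum had a log2 fold change of 6.10 ± 1.65 in postSTC against preSTC (adjusted p = 0.026) and 5.28 ± 1.57 in postSTC against preCTC (adjusted p = 0.0384). The sum, too, passed the filter on low counts through postSTC. Like those of Cyp2b1, these calls were lost without postSTC1 (adjusted p = 0.0572 and 0.116). The first was also lost without preSTC1, preSTC5 or preSTC7 (up to an adjusted p of 0.074), and the second without postSTC2 or any 1 preCTC library (0.0502 to 0.0842). The promoters of the pair are shown because they are nearly the same, at chr1:90645869-90646118 for Cyp2b1 and chr1:90722031-90722280 for Cyp2b2 (both plus strand, GRCr8, 250 bases before the gene start), with the GCGTG core in capitals.

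Cyp2b1: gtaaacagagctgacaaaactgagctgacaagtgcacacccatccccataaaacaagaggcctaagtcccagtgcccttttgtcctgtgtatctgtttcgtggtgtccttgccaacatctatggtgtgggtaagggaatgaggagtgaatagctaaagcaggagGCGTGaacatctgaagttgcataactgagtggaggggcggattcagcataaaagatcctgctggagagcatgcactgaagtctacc
Cyp2b2: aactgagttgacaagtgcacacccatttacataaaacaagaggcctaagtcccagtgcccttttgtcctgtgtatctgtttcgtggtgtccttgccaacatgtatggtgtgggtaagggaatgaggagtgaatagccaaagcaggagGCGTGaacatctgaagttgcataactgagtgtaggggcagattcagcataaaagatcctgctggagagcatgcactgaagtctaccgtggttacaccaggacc

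Shifted by 17 bases with no gap, the 2 stretches were identical at 225 of 233 positions (96.6%), and their longest shared run was 72 bases. The GCGTG core lies inside the shared stretch, at 86 bases before the gene start in Cyp2b1 and 103 in Cyp2b2.

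The 2d subfamily, which oxidises basic drugs and lies in 1 row of 5 genes on chromosome 7, split by member. Cyp2d4, the 2d enzyme of rat brain, had 37.6, 29.3, 21.4 and 12.4 CPM in postSTC, 28.7, 27.8, 28.1 and 32.6 CPM in preSTC and 7.69, 6.77, 5.99 and 8.74 CPM in preCTC. Every preCTC library lay below all others, with a log2 fold change of 1.79 ± 0.27 in postSTC against preCTC (adjusted p = 0.00104) and 2.01 ± 0.27 in preSTC against preCTC (adjusted p = 0.000189), and of -0.22 ± 0.26 in postSTC against preSTC (adjusted p = 0.597). Cyp2d1 ran the other way, with 56.7, 38, 24.3 and 16.5 CPM in postSTC, 25.3, 17.3, 32.8 and 20.9 CPM in preSTC and 30, 73.2, 57 and 39.4 CPM in preCTC. The preSTC and preCTC ranges overlapped, since preSTC7 lay above preCTC1, and the log2 fold change was -1.05 ± 0.37 (adjusted p = 0.0431). Cyp2d5, named after its values were seen, was called lower there too, at -1.24 ± 0.46 (adjusted p = 0.0494), with 2.04 to 4.99 CPM in preSTC and 5.61 to 11.4 CPM in preCTC. Both these calls were narrow: leaving out postSTC2, preSTC1, preSTC5, preSTC9, preCTC5, preCTC7 or preCTC9 ended that of Cyp2d1 (adjusted p = 0.0524 to 0.123), and the same libraries or preCTC1 that of Cyp2d5 (adjusted p = 0.0561 to 0.133). The low members Cyp2d2 (0.822 to 5.27 CPM) and Cyp2d3 (0.144 to 1.62 CPM) were called in no comparison. As 1 sum the 2d subfamily was not called in any comparison either.

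The epoxygenases of family 2 turn arachidonic acid into vasoactive epoxides. Cyp2j4, an intestinal enzyme of the rat, had 118, 81, 74.5 and 43.7 CPM in postSTC, 29.4, 54.9, 39.9 and 48.1 CPM in preSTC and 36.2, 42.3, 20.6 and 27.3 CPM in preCTC. All postSTC libraries exceeded all preCTC libraries, with a log2 fold change of 1.33 ± 0.30 (adjusted p = 0.0118). Against preSTC it was 0.88 ± 0.30 (adjusted p = 0.0625), and 1.08 without postSTC7 (adjusted p = 0.0177). Its neighbour Cyp2j3, an epoxygenase of rat heart, had 73.2, 54.4, 56.5 and 21.3 CPM in postSTC, 28.6, 45.1, 37 and 46.7 CPM in preSTC and 40.2 to 57.7 CPM in preCTC, and was called only without postSTC7 (0.64 against preSTC, adjusted p = 0.0342). Cyp2j10, named here after its values were seen, had 1.97, 1.23, 1.38 and 13.1 CPM in postSTC, 1.65 to 2.3 CPM in preSTC and 0.654 to 1.11 CPM in preCTC. Its call in postSTC against preCTC (2.39 ± 0.69, adjusted p = 0.0355) rested on postSTC7, without which the value was 0.87 (adjusted p = 0.0632), and against preSTC the value was 1.18 with that library and -0.35 without it. The same call was also lost without preSTC7 or any 1 preCTC library (adjusted p = 0.0511 to 0.0944). As 1 sum the 2j subfamily was called in no comparison. Its log2 fold change was 0.68 ± 0.25 in postSTC against preSTC (adjusted p = 0.0755) and 0.73 ± 0.25 in postSTC against preCTC (adjusted p = 0.064). In preSTC against preCTC the 2j sum gave 0.05 ± 0.24 (adjusted p = 0.894). Of the others, the vitamin D 25-hydroxylase Cyp2r1 (0.648 to 2.39 CPM), the retinoid-oxidising Cyp2s1 (1.34 to 16.9 CPM) and the fatty acid hydroxylase Cyp2u1 (7.48 to 15.4 CPM) were called in no comparison.

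Family 3, the counterpart of human CYP3A4, split into Cyp3a9, set apart after the operation, and Cyp3a18 and Cyp3a62, set apart in preCTC. Cyp3a9 had 927, 422, 275 and 101 CPM in postSTC, 121, 140, 150 and 135 CPM in preSTC and 248, 124, 186 and 233 CPM in preCTC. Of the postSTC libraries 3 lay above every preSTC library and postSTC7 below all of them. The log2 fold change was 1.66 ± 0.50 in postSTC against preSTC (adjusted p = 0.0388), 1.12 ± 0.49 in postSTC against preCTC (adjusted p = 0.141) and -0.53 ± 0.49 in preSTC against preCTC (adjusted p = 0.411). Without postSTC1 the first value was 0.96 (adjusted p = 0.0883), and with replicate number as a block 1.30 (adjusted p = 0.162). The call was also lost without postSTC2, any 1 preSTC library, preCTC7 or preCTC9 (adjusted p = 0.0515 to 0.097), while without postSTC7 it was 1.99 (adjusted p = 0.00419).

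Cyp3a62, the other major intestinal member of the rat, had 241, 228, 150 and 62.1 CPM in postSTC, 113, 157, 147 and 203 CPM in preSTC and 55.2, 47.3, 37.7 and 58.8 CPM in preCTC. No preCTC library reached a library of the other groups. Its log2 fold change was 1.78 ± 0.35 in postSTC against preCTC (adjusted p = 0.00518) and 1.64 ± 0.35 in preSTC against preCTC (adjusted p = 0.00322). Cyp3a18, a steroid hydroxylase of rat liver, had 78.5, 48.6, 19.8 and 13.8 CPM in postSTC, 21.2, 35, 25.3 and 35.4 CPM in preSTC and 2.09, 0.912, 1.26 and 0.722 CPM in preCTC. Again every preCTC library lay below all others, with a log2 fold change of 5.01 ± 0.58 in postSTC against preCTC (adjusted p = 0.00016) and 4.55 ± 0.57 in preSTC against preCTC (adjusted p = 0.000102). Neither member was called in postSTC against preSTC, with 0.14 ± 0.34 for Cyp3a62 (adjusted p = 0.809) and 0.46 ± 0.48 for Cyp3a18 (adjusted p = 0.533). All their calls against preCTC held when any 1 library was left out. As 1 sum the 3a subfamily was called in no comparison. Its log2 fold change was 1.00 ± 0.44 in postSTC against preSTC (adjusted p = 0.132) and 1.37 ± 0.44 in postSTC against preCTC (adjusted p = 0.0543). In preSTC against preCTC it was 0.37 ± 0.43 (adjusted p = 0.532). The classical liver form Cyp3a2 had 2 reads in all 12 libraries. PXR (Nr1i2), the usual sensor for this family, had 47.7, 40.5, 39.4 and 16 CPM in postSTC, 44.1, 35.6, 35.2 and 45.2 CPM in preSTC and 70.9, 56.2, 70.6 and 49.9 CPM in preCTC.

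**Figure D4:**
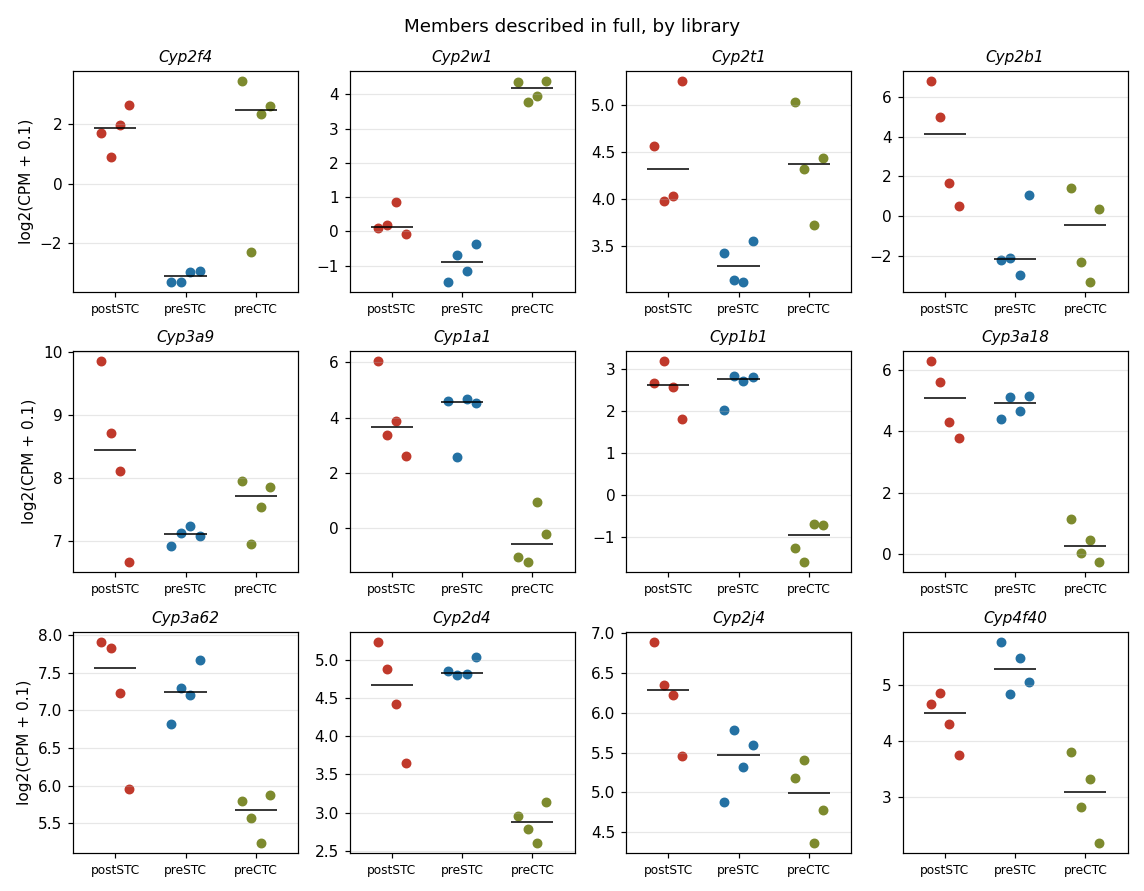
Level of 12 members in each library as log2(CPM + 0.1), with postSTC, preSTC and preCTC from left to right in each panel and a line at the median. The preCTC points lie below all others for Cyp1a1, Cyp1b1, Cyp3a18, Cyp3a62 and Cyp2d4 and above all others for Cyp2w1, and the preSTC points lie at or near the bottom for Cyp2f4 and Cyp2t1.

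Family 4 is led by the 4f subfamily, which hydroxylates leukotriene B4 and long fatty acids, and no member of this family was called in postSTC against preSTC by edgeR. Before adjustment (p under 0.05), 3 were higher and 1 lower, and DESeq2 called 1 and 1. The sum of the 9 members of the 4f subfamily was 524, 349, 211 and 165 CPM in postSTC, 164, 149, 138 and 175 CPM in preSTC and 142, 176, 154 and 133 CPM in preCTC, and postSTC7 lay below preSTC9. The sum was called in postSTC against preSTC (1.00 ± 0.29, adjusted p = 0.0337) and against preCTC (1.05 ± 0.29, adjusted p = 0.0282), but not without the member Cyp4f1 (0.38, adjusted p = 0.326, and 0.46, adjusted p = 0.258). The first call was also lost without postSTC1, postSTC2 or any 1 preSTC library (adjusted p = 0.0564 to 0.0912), and the second without postSTC1, postSTC2, preCTC1, preCTC7 or preCTC9 (adjusted p = 0.0543 to 0.0744). Leaving out members or libraries for such sums was chosen after seeing the data. Cyp4f5, the most abundant, had 203, 79.6, 107 and 68.3 CPM in postSTC, 73.8, 63.2, 57.2 and 82.9 CPM in preSTC and 104, 39.1, 120 and 105 CPM in preCTC, and all 3 groups overlapped (0.72 ± 0.37 in postSTC against preSTC, adjusted p = 0.193). Cyp4f40 had 25, 28.8, 19.7 and 13.4 CPM in postSTC, 54.1, 28.5, 44.1 and 33 CPM in preSTC and 13.8, 7.02, 9.95 and 4.48 CPM in preCTC. It was higher than in preCTC in postSTC (1.30 ± 0.34, adjusted p = 0.0227) and in preSTC (2.18 ± 0.35, adjusted p = 0.000542), and the first of these calls was lost without postSTC2 (adjusted p = 0.0616) or preCTC5 (adjusted p = 0.0578). In postSTC against preSTC it was -0.88 ± 0.34 (adjusted p = 0.0903), -1.20 with the replicate block in 12 libraries (adjusted p = 0.0289) and -1.13 with the block in the 8 libraries of these groups (adjusted p = 0.115).

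The remaining calls of family 4 were in postSTC against preCTC, for genes named here after their values were seen. Cyp4f37 had 10.3, 3.57, 2.42 and 2.42 CPM in postSTC, 1.32 to 3.64 CPM in preSTC and 0.253 to 1.81 CPM in preCTC (2.24 ± 0.63, adjusted p = 0.0301). That call was lost without postSTC1, where the value was 1.50, or without preCTC1, preCTC5 or preCTC7 (adjusted p = 0.0544 to 0.0855). Cyp4v3, a fatty acid hydroxylase, had 20.5, 35.7, 35.4 and 18.6 CPM in postSTC, 14.5 to 21 CPM in preSTC and 14.3 to 20 CPM in preCTC (0.72 ± 0.22, adjusted p = 0.045). It was lost when any 1 of postSTC2, postSTC5, preSTC5, preSTC7, preSTC9 and the preCTC libraries was left out (adjusted p = 0.0531 to 0.123). In postSTC against preSTC, the calls gained without postSTC7 in this family were Cyp4b1 (1.20, adjusted p = 0.0165), Cyp4f39 (2.65, adjusted p = 0.0331) and Cyp4v3 (0.73, adjusted p = 0.0252). The lauric acid hydroxylases of the 4a subfamily, standard targets of PPAR alpha, were at most 0.905 CPM (Cyp4a1 in postSTC1). Their reads summed to 52, 14, 4 and 0 in postSTC, 8, 34, 13 and 14 in preSTC and 1, 4, 1 and 1 in preCTC. None of the 4a members was tested singly. As 1 sum the subfamily was called higher in preSTC than in preCTC (3.30 ± 1.14, adjusted p = 0.0388). It was not called in postSTC against preCTC (3.50 ± 1.15, adjusted p = 0.0568) or against preSTC (0.20 ± 0.93, adjusted p = 0.904). With so few reads in preCTC these sizes are loosely known. The 4a sum passed the filter on low counts through libraries of postSTC and preSTC only, the groups with more reads. Its call was not repeated with single libraries left out, and preSTC5 held the most preSTC reads, 34.

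The leukotriene B4 hydroxylase Cyp4f1 and its relatives depended on 1 library. Cyp4f1 had 248, 197, 49.4 and 55.2 CPM in postSTC, 12.7, 27.7, 15.4 and 33.2 CPM in preSTC and 0.183, 94.9, 0.103 and 0.0963 CPM in preCTC. The postSTC libraries all lay above the preSTC libraries, and 3 preCTC libraries lay far below both, but preCTC5 was above every preSTC library. Since all groups shared 1 estimate of the spread, the log2 fold change of 2.63 ± 1.58 in postSTC against preSTC was not called (adjusted p = 0.269); without preCTC5 it was 2.62 with an adjusted p of 0.00929. In postSTC against preCTC the value was 2.53 ± 1.58 (adjusted p = 0.307), and 10.04 without preCTC5 (adjusted p = 6.46e-05). In preSTC against preCTC it was -0.10 ± 1.50 (adjusted p = 0.966), and 7.42 without preCTC5 (adjusted p = 0.000126). Cyp2c24, of a subfamily of epoxygenases, was alike, with 12, 10.9, 5.5 and 2.24 CPM in postSTC, 4.1, 9.47, 4.02 and 6.22 CPM in preSTC and 0.0523, 93, 0.36 and 0.409 CPM in preCTC. Its value in preSTC against preCTC was -1.98 ± 1.53 (adjusted p = 0.331), and 4.42 without preCTC5 (adjusted p = 0.00121). Cyp4f6, the neighbour of Cyp4f1 with 0 protein-coding genes between them, had 26.3, 27.7, 19 and 19.7 CPM in postSTC, 12.5, 19, 13.2 and 14.4 CPM in preSTC and 11.9, 25.1, 11.7 and 10.2 CPM in preCTC. The lowest postSTC library, postSTC5, lay just above the highest preSTC library, preSTC5. Cyp4f6 was called in postSTC against preSTC without preCTC5 (0.65, adjusted p = 0.0275) and not with it (0.65 ± 0.27, adjusted p = 0.117).

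In preCTC5 the enterocyte factor Hnf4g, at 114 CPM, also lay above the other preCTC libraries (18 to 30.3 CPM), against 115 to 270 CPM in postSTC and 303 to 341 CPM in preSTC. Slc10a2, which marks ileum, remained at 0.405 CPM in preCTC5, and Cyp1a1, Cyp1b1, Cyp3a18 and Cyp2w1 were near the level of the other preCTC libraries there. Cyp4f1, Cyp2c24, Cyp4f6, Hoxb13 and Hnf4g were chosen for description after their values were seen, and so were Cyp2j3, Cyp4b1 and Cyp4f39 above. Without postSTC7 and preCTC5 together, a setting chosen after seeing the data, 33 members were tested. In postSTC against preSTC 13 members were called higher (39.4%, against 11.8% of all genes) and 0 lower (against 7.51%). In postSTC against preCTC 17 were called higher (51.5%, against 10.4%) and 2 lower (6.06%, against 9.38%), and in preSTC against preCTC 10 higher (30.3%, against 20.4%) and 6 lower (18.2%, against 22.8%). Of the main calls 5 of 5, 11 of 12 and 10 of 11 were among them. The promoters of Cyp4f1 at chr7:12672554-12672803 (minus strand) and Cyp2c24 at chr1:246286091-246286340 (plus strand, both GRCr8, 250 bases before the gene start) are shown as those of the members that were high together in preCTC5, with GCGTG or its reverse complement in capitals for Cyp4f1 and TATAAA for Cyp2c24.

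Cyp4f1: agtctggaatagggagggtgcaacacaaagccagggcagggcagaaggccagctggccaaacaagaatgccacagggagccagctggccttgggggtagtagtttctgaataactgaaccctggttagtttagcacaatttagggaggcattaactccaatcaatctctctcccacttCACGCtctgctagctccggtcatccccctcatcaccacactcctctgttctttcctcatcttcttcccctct
Cyp2c24: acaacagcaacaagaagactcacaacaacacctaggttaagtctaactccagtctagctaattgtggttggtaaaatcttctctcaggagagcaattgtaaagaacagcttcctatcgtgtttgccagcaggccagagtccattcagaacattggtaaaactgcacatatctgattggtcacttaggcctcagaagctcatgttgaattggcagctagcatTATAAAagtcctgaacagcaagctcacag

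Of the 3 motifs searched, Cyp4f1 held GCGTG (as CACGC, 72 bases before the gene start) and Cyp2c24 held TATAAA (29 bases before it), so that no searched motif was shared.

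**Figure D5:**
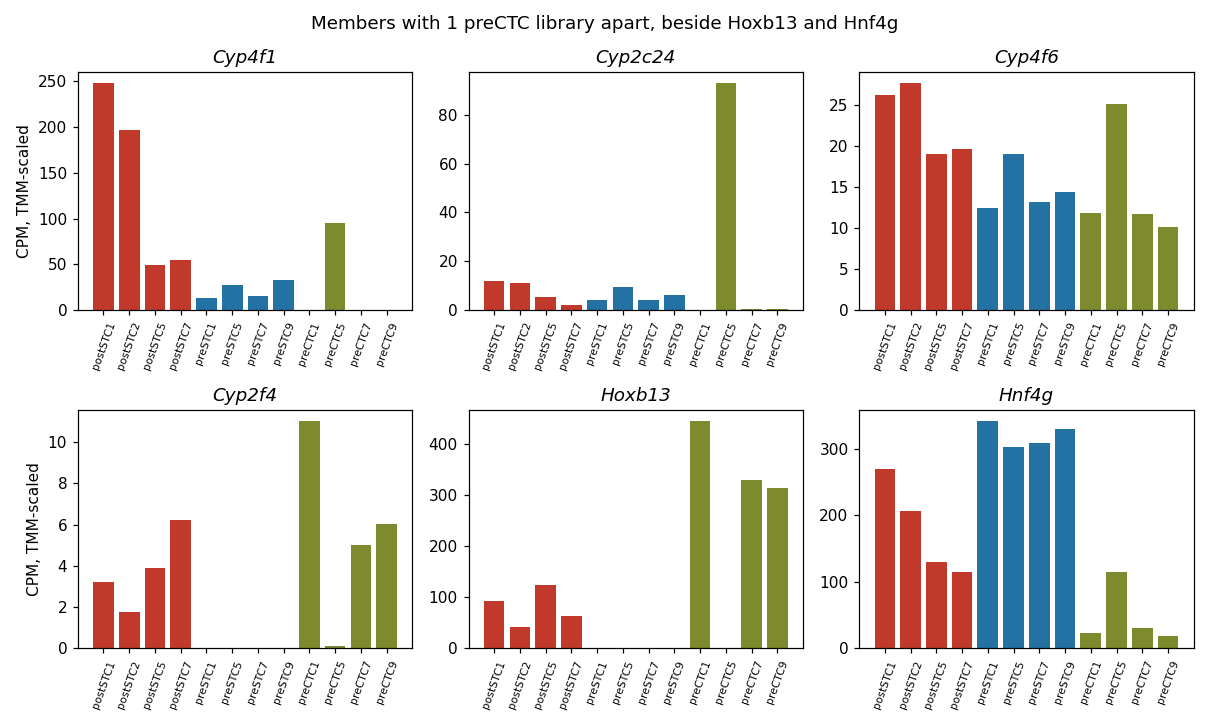
CPM in each library for Cyp4f1, Cyp2c24, Cyp4f6, Cyp2f4, Hoxb13 and Hnf4g, with postSTC, preSTC and preCTC from left to right. In preCTC5 the first 3 genes and Hnf4g stand above the other preCTC libraries (94.9, 93, 25.1 and 114 CPM), and Cyp2f4 and Hoxb13 stand near 0 (0.101 and 1.44 CPM).

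A total of 18 members had too few reads to be tested. Several of them were read in postSTC7 alone or nearly so: Cyp2a3 had 38 reads there and 1 elsewhere, Cyp2b21 had 21, Cyp2b15 13, Cyp2b12 6 and Cyp2b3 1, all with 0 elsewhere, and Cyp2c22 had 16 there and 4 in preCTC7. These reads stood in the library with 42.1% of counts on seminal vesicle and prostate markers, and that library's part in them was not tested. With the floor of 3 reads per group, Cyp2b21 was at least 7.76-fold higher in postSTC than in preSTC. That bound rests on postSTC7 alone and does not describe the other postSTC libraries. The ethanol-oxidising Cyp2e1 had 20 reads in postSTC, 0 in preSTC (at least 7.39-fold higher in postSTC) and 6 in preCTC. Its postSTC reads numbered 1, 5, 4 and 10, the most again in postSTC7. Liver forms of the rat that differ by sex, Cyp2c11 and Cyp2c12, had 22 and 1 reads in all. Of the rest, Cyp4a1, Cyp4a3, Cyp4a8 and Cyp4x1 had 48, 57, 40 and 46 reads in all, and Cyp4a2 and Cyp4f4 had 1 each.

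Genes that serve or govern the P450s were read as short lists, whose counts are to be set against the shares of all genes: 11.1% higher and 6.9% lower in postSTC against preSTC, 9.27% and 7.37% in postSTC against preCTC, and 19.1% and 19.6% in preSTC against preCTC. Por, Ahr, Nr1i2, Hnf4g, Vdr, Gsta2, Ugt1a6, Aldh3a1, Tiparp, Ahrr, Nqo1 and Cyp17a1 are named after their values were seen. Of the 4 electron carriers, Cyb5r3 was higher in postSTC than in preSTC (0.59 ± 0.10, adjusted p = 0.00277) and 0 were lower (median 0.20, against 0.04 for all genes; 0 lower also before adjustment (p under 0.05) and by DESeq2). P450 oxidoreductase, Por, had 178, 137, 109 and 93.3 CPM in postSTC, 160, 140, 167 and 139 CPM in preSTC and 88.7, 105, 113 and 93.6 CPM in preCTC. It was higher in preSTC than in preCTC (0.60 ± 0.17, adjusted p = 0.0172). Of 16 regulators, 2 were higher in postSTC than in preSTC and 1 lower (median -0.15). These were Nr1i3, above, the orphan receptor Nr2f2 (0.85 ± 0.19, adjusted p = 0.011) and, lower, the bile acid receptor Nr1h4 (86.1, 91.8, 60.8 and 34.5 CPM in postSTC, against 153, 106, 160 and 130 CPM in preSTC, adjusted p = 0.0217). Against preCTC, 2 regulators were higher and 1 lower in postSTC, and 3 were higher and 2 lower in preSTC. Hnf4g was higher in both, by 1.96 ± 0.52 (adjusted p = 0.023) and 2.79 ± 0.53 (adjusted p = 0.00166), and the vitamin D receptor Vdr lower in both, by -0.92 ± 0.21 (adjusted p = 0.0114) and -0.78 ± 0.21 (adjusted p = 0.0118).

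PPAR alpha targets other than the P450s numbered 10, of which 2 were higher in postSTC than in preSTC and 0 lower (median 0.83; 4 and 0 before adjustment (p under 0.05), 4 and 0 by DESeq2). Angptl4, an inhibitor of lipoprotein lipase, had 26, 32.5, 30.5 and 8.15 CPM in postSTC, against 8.15, 1.86, 4.62 and 1.48 CPM in preSTC (2.59 ± 0.66, adjusted p = 0.0195). Against preCTC, 4 of the 10 were higher and 2 lower in postSTC, and 2 higher and 3 lower in preSTC. Enzymes that share arachidonate with the P450s numbered 12, of which 3 were higher in postSTC than in preSTC (Alox12, Ephx1 and Ltc4s) and 1, Lta4h, was lower (median 0.36). The epoxide hydrolase Ephx1 had 81.1, 92.4, 46.2 and 43.9 CPM in postSTC, against 39.1, 29.2, 26.4 and 40.7 CPM in preSTC (0.96 ± 0.25, adjusted p = 0.0205). Lta4h, which makes leukotriene B4, had 251, 222, 188 and 239 CPM in postSTC, against 359, 305, 329 and 328 CPM in preSTC (-0.55 ± 0.12, adjusted p = 0.00861). Against preCTC, 2 of the 12 were higher and 2 lower in postSTC, and 1 higher and 3 lower in preSTC.

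P450s of the higher families, with more fixed roles in sterol and hormone synthesis, numbered 20 in the table and 13 tested. In postSTC 2 were higher than in preSTC and 0 lower (median 0.53; 4 and 0 before adjustment (p under 0.05), 3 and 0 by DESeq2). These were Cyp27a1, which starts the side-chain oxidation of cholesterol (1.02 ± 0.24, adjusted p = 0.0133), and the prostacyclin synthase Ptgis (0.94 ± 0.29, adjusted p = 0.0415). Against preCTC, 2 were higher and 0 lower in postSTC and 3 higher and 3 lower in preSTC, and the steroid hydroxylase Cyp17a1 was higher in both (4.81 ± 0.58, adjusted p = 0.00023, and 4.24 ± 0.56, adjusted p = 0.000161). Of 10 genes of heme supply, 0 were higher and 1, Cpox, was lower in postSTC than in preSTC (-0.51 ± 0.11, adjusted p = 0.0106; median -0.17; 2 higher and 4 lower before adjustment (p under 0.05), 0 and 1 by DESeq2). Against preCTC, 1 was higher and 0 lower in postSTC, and 3 were higher and 1 lower in preSTC, with Cpox among the higher ones in both.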

How the data were processed

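RNA of 12 rat intestine samples, 4 in each of 3 groups, was measured by sequencing of polyA RNA (TRIzol extraction and a VAHTS Universal V6 library kit, per the labels' protocols). The authors deposited raw counts per gene, without normalization, and FPKM per gene and sample; fastp, HISAT2, HTSeq and the build mRatBN7.2 are named per the submitters' processing notes, without versions, and the strand setting and the treatment of reads that match several genes are stated in none of the sources used. The design text of the series describes another species and other tools, and was not used. The deposited FPKM were proportional to counts over library totals within a gene (largest relative deviation 1.01e-15).

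Counts were tested in R 4.3.3 with edgeR 4.0.16 (TMM scaling, filterByExpr, quasi-likelihood test in 1 fit of all 12 libraries, Benjamini-Hochberg adjustment over 15704 genes, or 83.8% of 18749, called at an adjusted p under 0.05). SE is the log2 fold change over the square root of F, and the biological coefficient of variation was 0.322. Alternatives were DESeq2 1.42.0 with its own size factors, edgeR with those size factors (RLE), no filter, a filter of 1 CPM in 4 libraries, each library left out in turn, a replicate block, fits of 8 libraries, the seminal marker genes left out, subfamilies summed, and limma 3.58.1 on log2(FPKM + 1) and log2(FPKM + 0.1) of genes with at least 0.5 FPKM in 4 libraries. The FPKM used with limma were as deposited, without TMM factors. The steps were tested on simulated data. No protein table was used, so near-identical copies were read by subfamily.

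Values in every library are given for members called in postSTC against preSTC, for the 8 with the lowest p in each comparison with preCTC, and for the most abundant of each family. Members and lists were chosen with earlier results of these data known. Same-numbered postSTC and preSTC libraries deviated together (3 pairs, correlation of deviations 0.178 to 0.311, against -0.238 to 0.134 for other numbers). They were taken as pairs on that ground, the labels giving a shared number only. The ground is weak. Between preSTC and preCTC, not taken as pairs, values reached 0.271 for the same number and 0.256 for other numbers. Shared animals are thus not shown. All samples carry batch 1, so no within-batch values exist. No pair of libraries of a group was alike within sampling noise (18 pairs, chi-square per gene at least 29.3). The 95% counting intervals are exact, and floors are 3 reads over a group; both cover counting error only, since reads are not independent molecules. RefSeq names and promoters are those of GRCr8. Of the gene identifiers, 18531 (98.8%) matched, and all 50 members did. A gene of the pathway lists is not reported here by name.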

Additional observations from a re-analysis of the deposited data

Results flagged for a closer look

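In 8 of 96 groups of 4 libraries, 1 library stood far from the other 3 by Dixon's 95% limit on its gap to the nearest, relative to the whole range. For independent, normally distributed values chance gives this in about 1 in 20 groups. The values here were CPM without a log, and members share libraries, so that rate is a rough guide. The 8 are thus listed as a description and not as more than chance would give. In preCTC, library 5 was the highest for 3 members: Cyp4f1 had 94.9 CPM there (next 0.183 CPM), Cyp2c24 had 93 CPM (next 0.409 CPM), and Cyp4f6 had 25.1 CPM (next 11.9 CPM). In postSTC, library 1 was the highest for Cyp1a1, at 65.1 CPM (next 14.5 CPM), and for Cyp4f37, at 10.3 CPM (next 3.57 CPM). Library 7 of the same group, the one with the seminal vesicle and prostate markers, was the highest for Cyp2j10, at 13.1 CPM (next 1.97 CPM). In preSTC, library 5 was the lowest for Cyp1a1, at 5.8 CPM (next 23 CPM), and library 9 the highest for Cyp2b1, at 1.96 CPM (next 0.129 CPM).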

How the results depend on the processing

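The count of members called in postSTC against preSTC, 5, was 9 with DESeq2, 1 with the replicate block in 8 libraries, 0 and 2 with limma on log2(FPKM + 1) and log2(FPKM + 0.1), 13 without postSTC7 and preCTC5 together, and 2 to 10 when 1 library was left out. For postSTC against preCTC, 12 became 3 with the replicate block in 8 libraries and 7 in 8 libraries without it, 6 and 6 with limma, 19 without both libraries, and 8 to 13 when 1 was left out. For preSTC against preCTC, 11 became 9 to 13 when 1 library was left out. In the comparisons with postSTC, the blocked fit of 8 libraries had no partner for postSTC2 or for the other group's library 9. Lost precision may thus enter those counts, which was not tested. No shares of all genes are given for the fits with 1 library left out, DESeq2, limma, the replicate blocks or the fits of 8 libraries. Those shifts thus cannot be read as particular to the members. With subfamilies summed the units differ: 5, 6 and 6 of 17 subfamilies were called (29.4%, 35.3% and 35.3%), against 15.6%, 37.5% and 34.4% of members. In postSTC against preSTC, limma on log2(FPKM + 1) gave 0 calls where 3 members were higher and 1 lower at an unadjusted p under 0.05. The limma fits used no TMM factors, so postSTC7 (factor 0.567) enters them at lower levels than under TMM scaling. Members with a p-value numbered 32 with edgeR, 47 with DESeq2 and 28 with limma, so these tools' counts are not out of the same members.

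Directions turned for 3 members. Cyp2j10 in postSTC against preSTC (1.18) ranged from -0.35 to 1.49 with 1 library left out and was -0.34 without both. Cyp2c24 in preSTC against preCTC (-1.98) ranged from -2.39 to 4.42, and was 1.47 and 2.30 with the replicate block in 12 and 8 libraries, 0.36 and 1.69 with limma, and 4.40 without both. Cyp4f1 in that comparison (-0.10) ranged from -0.51 to 7.42, and was 3.50 and 4.67 with the block, 1.93 and 3.82 with limma, and 7.41 without both. Where the single library decides the value, its removal shows it; otherwise the cause was not tested. For the pairs with preCTC the numbers are only shared (correlations -0.0416 to 0.223 and -0.0336 to 0.271), and the block in 12 libraries gave 10 and 11 calls. Seminal marker genes left out ended 1 of 32 calls and values (Cyp2d5). Cyp2f4 did not pass the filter in the 8-library fits of preSTC against preCTC, and DESeq2 gave no adjusted p for Cyp2c24 there and for Cyp2j10. The 18 untested members did not pass the filter on low counts, though Cyp2a3 had 38 reads in postSTC7. Within 1 library, a level under 3 reads, or 0.0722 to 0.134 CPM, cannot be told from 0.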
